A study of Spirodela polyrhiza with 13 samples.

Results

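The genes described here are those whose mRNA level rose in small steps at every stage of frond development in the greater duckweed, Spirodela polyrhiza. They were chosen from the deposited expression table by its stage means alone. With L as log2(mean FPKM + 1), where FPKM stands for fragments on a gene scaled by gene length and library total, a member had a mean of at least 5 FPKM at stage 6 and a change in L of at least 0.3 at each of the 4 steps between neighbouring stages. Its change also stayed below 1 on entering stage 3, below 0.8 on entering stage 4, below 2 on entering stage 5 and below 1 on entering stage 6. These limits left 94 of the 19623 genes listed, so the cap of 300 members set for the list did not come into play. All 94 were among the 15608 genes that reached 1 FPKM in 2 or more libraries, the set used for every comparison with other genes.

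The 13 libraries were from frond tissue of wild-type plants at developmental stages 2, 3 and 4, with 3 libraries each, and at stages 5 and 6, with 2 libraries each. Plants of every stage grew in SH medium renewed every 7 days, with 16 h of light at 23 °C and 8 h of darkness at 20 °C. The labels do not say which plants, cultures or parts of the frond each library came from, so spread between libraries may be technical, and in whole tissue fewer cells of a type and less RNA per cell cannot be told apart. Libraries held 7708200 to 10910370 reads on genes, as recovered from the FPKM values.

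A duckweed frond is a reduced, leaf-like floating body that buds daughter fronds from pockets at its base. As it matures, its cells leave the cell cycle, expand and form chloroplasts, and air spaces called aerenchyma open between them and give the frond buoyancy and gas transport. In other plants, hormones such as ethylene, auxin and abscisic acid take part in forming such spaces, and the series is concerned with hormones and aerenchyma. The deposited gene IDs come without names, so the members are given by ID and ordered by level and by shape of their course, and no function is assigned to any of them.

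Levels of the members spanned a wide range. At stage 6 their means lay between 6.19 and 7529 FPKM with a median of 70.5, against 0.141 to 1868 FPKM with a median of 13.5 at stage 2. Over all genes tested the median was 22.0 FPKM at stage 6, against 26.0 FPKM at stage 2. Members therefore lay below the typical gene at stage 2 and above it at stage 6 by their medians. The rule asked for a rise at every step and at least 5 FPKM at stage 6, so this follows in part from the choice. At stage 6, 23 members were at 500 FPKM or more, 30 between 50 and 500 FPKM and 41 below 50 FPKM, classes set after the values were seen.

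**Figure D1:**
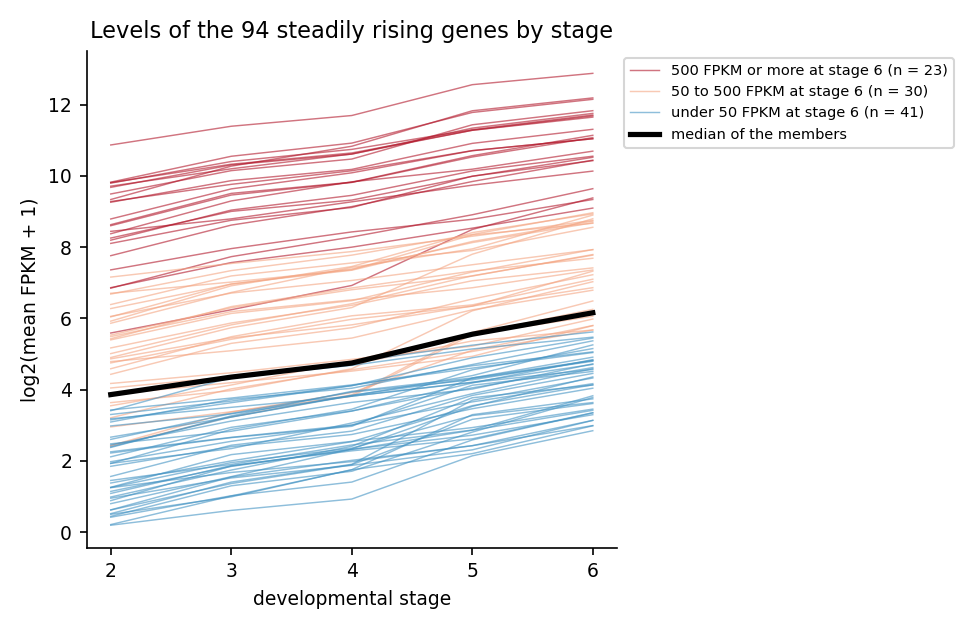
Mean level of each of the 94 genes on the log2(mean FPKM + 1) scale (vertical axis) at stages 2 to 6 (horizontal axis), coloured by level at stage 6, with the median of all members as a thick black line. The lines run roughly parallel over the range from 6.19 to 7529 FPKM at stage 6 and steepen from stage 4 to stage 5.

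By ratio of mean FPKM, stage 6 over stage 2, the members differed from 2.81-fold to 44.2-fold, with a median of 5.92-fold. In all, 77 members were at least 4-fold and 19 at least 10-fold higher at stage 6 than at stage 2. The median ratio was 4.83 among the 23 members at 500 FPKM or more, 5.64 among the 30 in the middle class and 7.45 among the 41 below 50 FPKM. On the log2(mean FPKM + 1) scale, which damps changes of low genes, the median differences between stage 6 and stage 2 in the same classes were 2.27, 2.44 and 2.38. Of the 94 members, 12 had a mean below 1 FPKM at stage 2, and 25 rested on under 100 reads over the 3 stage 2 libraries, so their starting levels are loosely measured.

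The 4 steps were not of equal size. Median steps in L were 0.68 into stage 3, 0.43 into stage 4, 0.67 into stage 5 and 0.56 into stage 6. The step into stage 5 was the largest for 45 members, that into stage 3 for 37, that into stage 6 for 11 and that into stage 4 for 1. The smallest step was that into stage 4 for 45 members, into stage 5 for 18, into stage 6 for 17 and into stage 3 for 14. These counts describe the choice as much as the plants, since the upper limit was 0.8 for the step from stage 3 to stage 4 and 2 for the step from stage 4 to stage 5. Step sizes and counts also refer to FPKM as deposited. Over all genes tested the median steps were 0.025, -0.064, -0.18 and -0.051 in stage order. Factors for scaling libraries by their median ratio were 1.00 to 1.06 at stage 4 and 0.89 to 0.91 at stage 5. Such scaling would change the step sizes, and their ranking under it was not tested.

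**Figure D2:**
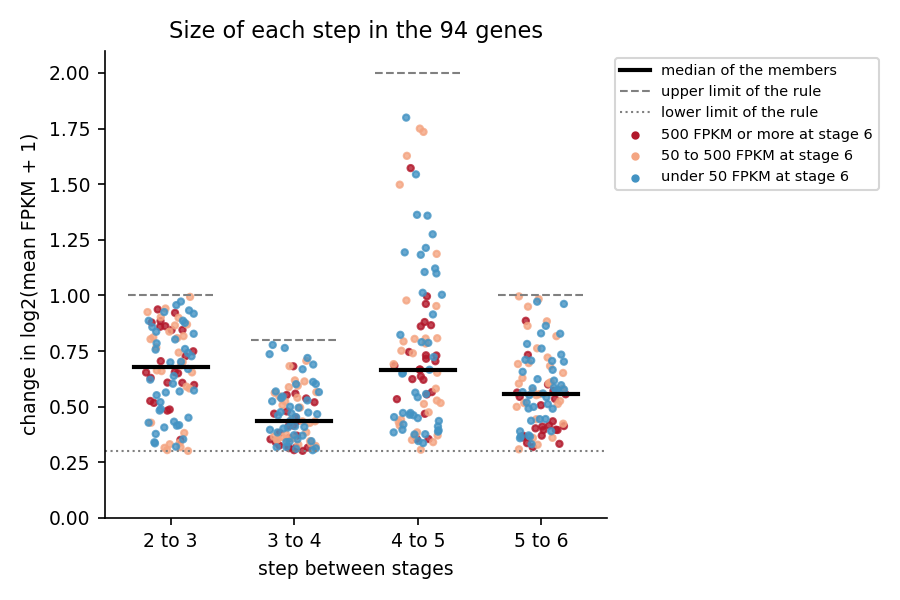
Change in log2(mean FPKM + 1) (vertical axis) at each of the 4 steps (horizontal axis), with 1 point per gene, coloured by level at stage 6, the median as a black bar, the lower limit of 0.3 as a dotted line and the upper limits as dashed lines. Medians were 0.68, 0.43, 0.67 and 0.56 in stage order, and the step from stage 4 to stage 5 spread most widely, up to 1.80.

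The 10 members highest at stage 6 had 2254 to 7529 FPKM there and coding lengths of 486 to 1068 bases. The highest, Spipo19G0027400 (804 bases), had 1976, 1869 and 1758 FPKM at stage 2, then 2359, 3298 and 2409 at stage 3, 2700, 3613 and 3626 at stage 4, 5504 and 6575 at stage 5, and 7451 and 7607 at stage 6. Its libraries did not overlap between neighbouring stages except between stages 3 and 4, where replicate 2 of stage 3 lay above replicate 1 of stage 4. Its log2 change from stage 2 to stage 6 was 2.01 (SE 0.17, limma). It was also 1 of the 3 members nearest the lower limit, with a smallest step of 0.301 between stages 3 and 4.

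Spipo3G0099600 (795 bases) had the largest ratio of those 10 genes, 7.23-fold. It was at 707, 714 and 515 FPKM at stage 2, 1096, 1564 and 1049 at stage 3, 1441, 1858 and 2165 at stage 4, 3610 and 3658 at stage 5, and 4587 and 4750 at stage 6. Libraries of stages 3 and 4 again overlapped through replicate 2 of stage 3, while both libraries of stage 5 lay above all of stage 4. Spipo22G0035800 (732 bases), Spipo4G0053500 (771 bases) and Spipo22G0045300 (882 bases) had the same kind of overlap between stages 3 and 4, with means of 4541, 3640 and 3452 FPKM at stage 6, against 905, 719 and 818 FPKM at stage 2. The other 5 of the 10 were ordered by stage in every library. They were Spipo11G0039900, Spipo9G0011900, Spipo8G0024400, Spipo4G0050200 and Spipo7G0036300, with ratios of 3.58 to 5.70.

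Among all members, 48 (51.1%) had their libraries fully ordered by stage, each library of a later stage lying above each library of the stage before at all 4 steps. Over all genes tested this held for 1.07%, and since the rule chose on the same means, nothing is read from the gap. Another 25 members were free of overlap at 3 steps (background 5.41%), 16 at 2 steps (background 14.2%), 4 at 1 step (background 26.5%) and 1 at none (background 52.8%). Overlap was most frequent between stages 3 and 4, where 55 members (58.5%) did not overlap, against a background of 9.53% of genes tested with every stage 4 library above every stage 3 library. At the other steps 78 members (background 20.4%, stages 2 and 3), 84 (background 20.9%, stages 4 and 5) and 86 (background 24.6%, stages 5 and 6) did not overlap. The background was likewise lowest between stages 3 and 4, where the rule set its lowest upper limit, and stages 5 and 6 had fewer libraries. The order of the steps is therefore not a trait of the members alone. Without stage 3 replicate 2, 63 members were fully ordered, beside 1.45% of all genes tested. Leaving out any other single library gave 48 to 55 members, beside 1.10% to 1.45% of all genes tested. Fewer libraries leave fewer chances of overlap in every such case, and why the number was highest without stage 3 replicate 2 was not tested.

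The ordered genes with the smallest spread on the log2(FPKM + 1) scale, which damps the spread of low genes, ran over very different levels. Spipo13G0052200 (1452 bases) was at 228, 215 and 205 FPKM at stage 2, 339, 406 and 431 at stage 3, 542, 527 and 617 at stage 4, 876 and 958 at stage 5, and 1480 and 1299 at stage 6. No library of a stage overlapped with a neighbouring stage, and the log2 change from stage 2 to stage 6 was 2.68 (SE 0.12, limma). Spipo5G0041000 (858 bases) averaged 43.9 ± 4.42, 72.0 ± 3.71 and 90.7 ± 6.46 FPKM over stages 2, 3 and 4 (SD, n = 3 each), and 115 ± 5.78 and 163 ± 9.06 FPKM at stages 5 and 6 (SD, n = 2 each). At the low end, Spipo16G0025100 (1008 bases) was ordered in every library although it had only 28 reads over the stage 2 libraries. It averaged 0.932 ± 0.157, 1.86 ± 0.137 and 2.66 ± 0.215 FPKM over stages 2, 3 and 4 (SD, n = 3 each), then 3.95 ± 0.490 and 7.79 ± 0.431 FPKM at stages 5 and 6 (SD, n = 2 each). Spipo0G0106000 (1725 bases) was the other gene of this kind, at 42.6 ± 4.78 FPKM at stage 6 (SD, n = 2), against 7.87 ± 0.447 FPKM at stage 2 (SD, n = 3).

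**Figure D3:**
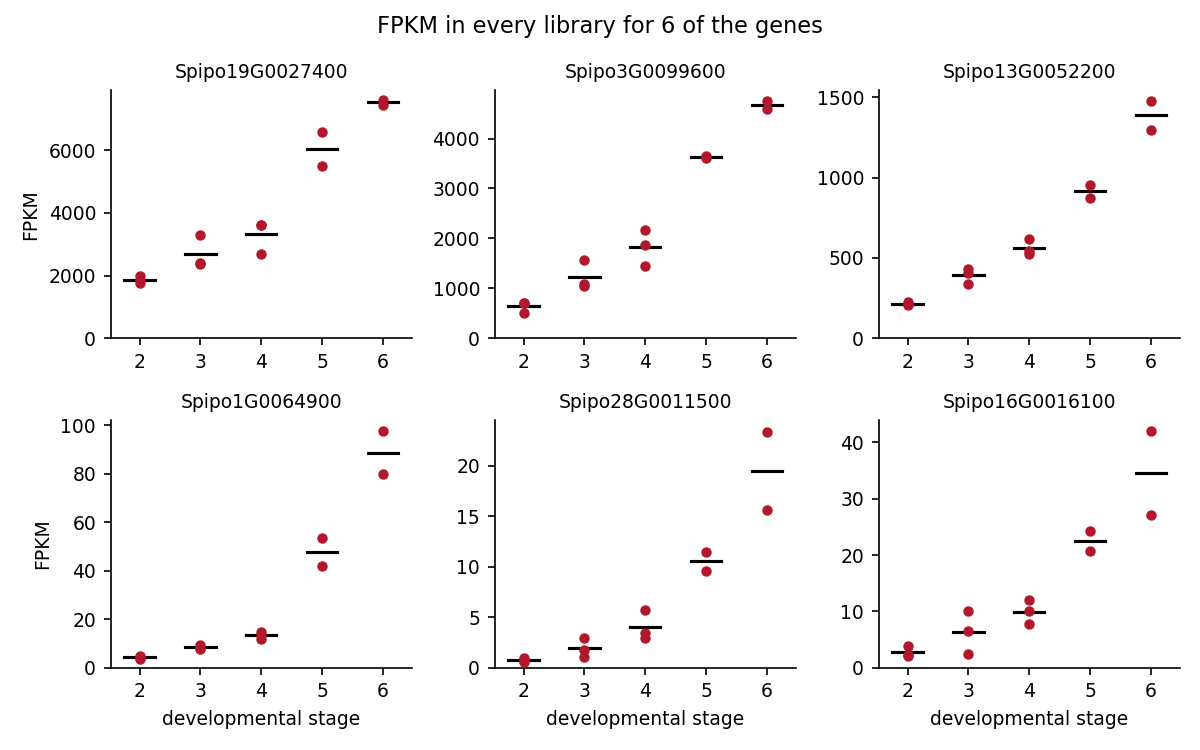
FPKM (vertical axis, each panel on its own scale from 0) in every library at stages 2 to 6 (horizontal axis) for 6 of the genes, with 1 point per library and a bar at the stage mean. Libraries of Spipo13G0052200 and Spipo1G0064900 do not overlap between neighbouring stages. Those of Spipo19G0027400, Spipo3G0099600, Spipo28G0011500 and Spipo16G0016100 overlap between stages 3 and 4, and those of Spipo16G0016100 also between stages 2 and 3.

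The largest changes on the log2(FPKM + 1) scale came mostly with a large step from stage 4 to stage 5. The rule let only that step exceed 1, so this pattern follows in part from the choice. Spipo1G0064900 (369 bases) was at 4.25, 5.07 and 3.73 FPKM at stage 2, 8.02, 9.38 and 7.87 at stage 3, 13.5, 14.9 and 12 at stage 4, 41.8 and 53.4 at stage 5, and 97.5 and 79.9 at stage 6. Every library was ordered by stage, and the log2 change from stage 2 to stage 6 was 4.07 (SE 0.16, limma), the largest of the 94. Its step from stage 4 to stage 5 was 1.75 and its other steps lay between 0.62 and 0.88. The next ID in the table, Spipo1G0065000 (231 bases), was a member as well, the only pair of members next to each other in ID order, and is named for that after its values were seen. Spipo1G0065000 reached 25.4 ± 2.14 FPKM at stage 6 (SD, n = 2), against 4.45 ± 0.766 FPKM at stage 2 (SD, n = 3), and lacked the large step, with a change of 0.38 from stage 4 to stage 5.

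Spipo15G0042300 (1452 bases) was at 34.0, 27.5 and 25.1 FPKM at stage 2, 56.0, 50.4 and 50.7 at stage 3, 78.9, 70.0 and 84.8 at stage 4, 190 and 254 at stage 5, and 389 and 498 at stage 6. Its libraries were ordered throughout, and its step of 0.996 from stage 5 to stage 6 lay just under the upper limit of 1. Spipo2G0093000 (435 bases) had a mean of 666 ± 43.5 FPKM at stage 6 (SD, n = 2), against 47.1 ± 4.42 FPKM at stage 2 (SD, n = 3), a log2 change of 3.80 (SE 0.24, limma). Its stage 5 libraries were far apart, at 256 and 463 FPKM. Spipo19G0008600 (1272 bases) was at 11.4, 9.97 and 12.9 FPKM at stage 2 and 14, 13.4 and 16.6 at stage 3. At stage 4 it was at 18.1, 16.6 and 34.3 FPKM, so that replicate 3 carried most of the step into that stage, before 60.7 and 85.6 FPKM at stage 5 and 132 and 127 FPKM at stage 6. For Spipo3G0043100 (396 bases) the ratio of means was 44.2-fold, the largest of the members, but only 5 reads stood behind its mean of 0.430 FPKM at stage 2.

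Genes with the largest smallest step kept every step well above 0.3. Spipo28G0011500 (837 bases) had the highest such value, 0.76, from 0.669, 0.994 and 0.547 FPKM at stage 2 and 1.05, 2.97 and 1.80 at stage 3 to 2.92, 3.48 and 5.72 at stage 4, 9.61 and 11.4 at stage 5, and 23.4 and 15.6 at stage 6. Its libraries of stages 3 and 4 overlapped by a narrow margin, and it had 18 reads over the stage 2 libraries. In Spipo3G0095500 (522 bases) the stages were far apart and the libraries close, at 26.6, 36.6 and 30.4 FPKM at stage 2, 56.5, 53.7 and 56.1 at stage 3, 82.8, 84.4 and 85.1 at stage 4, 134 and 157 at stage 5, and 224 and 212 at stage 6. It was the only one of these 6 genes at or above 100 FPKM at stage 6 besides Spipo2G0093000, and its log2 change from stage 2 to stage 6 was 2.78 (SE 0.12, limma). Spipo30G0009500 (480 bases) was ordered in every library, with 75.2 ± 0.373 FPKM at stage 6 (SD, n = 2), against 10.7 ± 2.74 FPKM at stage 2 (SD, n = 3). In Spipo16G0016100 (432 bases) the libraries of stage 3 were at 6.59, 10.01 and 2.49 FPKM, and replicate 3 lay within the stage 2 range of 2.17 to 3.89.

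The 6 members with the most even steps had changes below the median of the members, 2.35. They were Spipo29G0002100, Spipo29G0029100, Spipo13G0012600, Spipo2G0105000, Spipo19G0016400 and Spipo3G0001400, whose L differed by 1.38 to 1.76 between stage 6 and stage 2. Spipo3G0001400 (651 bases) had steps of 0.32, 0.31, 0.38 and 0.37, yet its stage 6 libraries were at 15.9 and 29.4 FPKM and the lower of them lay below both stage 5 libraries, at 17.7 and 17.0 FPKM. In Spipo13G0012600 (2685 bases), by contrast, all libraries were ordered, from 12.7, 13.9 and 13.8 FPKM at stage 2, 19.2, 22.0 and 18.0 at stage 3 and 24.6, 28.7 and 25.9 at stage 4 to 40.7 and 33.3 at stage 5 and 51.1 and 45.1 at stage 6.

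The 4 members with the widest spread within a stage were low genes. Spipo23G0024200 (480 bases) was listed at 0.233, 0 and 0.191 FPKM at stage 2, 0, 0.451 and 1.12 at stage 3, 1.11, 0.225 and 1.37 at stage 4, 1.35 and 5.46 at stage 5, and 6.74 and 5.63 at stage 6. It had 49 reads at stage 6 against 2 at stage 2, a ratio of 43.5 after depth with an exact 95% interval from 11.4 to 369 that covers counting error only, and its libraries overlapped at each step but the last. In Spipo1G0070500 (615 bases) and Spipo20G0035000 (1044 bases) the stage 6 libraries lay far apart, at 4.84 and 13.5 FPKM in Spipo1G0070500 and at 18.1 and 40.0 FPKM in Spipo20G0035000. Spipo16G0016100, described above, was the fourth. The pooled SD of log2(FPKM + 1) within stages had a median of 0.23 over the members and of 0.18 over all genes tested. Among members it was 0.18 for those at 500 FPKM or more and 0.31 for those below 50 FPKM.

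Near the lower limit, membership turned on differences far smaller than this spread. The members just inside were Spipo31G0001500, Spipo19G0027400 and Spipo20G0000700, with smallest steps of 0.301, 0.301 and 0.304. Just outside were Spipo15G0008300, Spipo0G0169700 and Spipo13G0051600, with smallest steps of 0.299, 0.297 and 0.296. The 2 last-named genes were abundant, at 2778 and 2265 FPKM at stage 6, and missed the limit only from stage 5 to stage 6. Of the 94 members, 31 had a smallest step under 0.35 and 15 one of at least 0.5.

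A fit of all genes shows how many single steps stood clear of the spread between libraries. It was made with limma on log2(FPKM + 1) for all 13 libraries, with Benjamini-Hochberg adjustment over the 15608 genes, and a gene was called at an adjusted p under 0.05. Because the rule used the same contrasts, the counts are a description. From stage 2 to stage 6, 94 of the 94 members were called as rising, beside 28.1% of all genes tested. All 94 also had every stage 6 library above every stage 2 library, as had 31.9% of all genes tested. At the step into stage 3, 61 were called (background 8.81%), into stage 4, 8 (background 1.91%), into stage 5, 70 (background 14.9%), and into stage 6, 28 (background 5.35%).

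Only 5 members were called at all 4 steps, beside 0.0577% of all genes tested. They were Spipo13G0052200, Spipo3G0095500 and Spipo1G0064900, described above, with Spipo0G0041700 and Spipo18G0019600, the last 2 named after their values were seen. Spipo0G0041700 (579 bases) was at 63.1, 61.4 and 47.0 FPKM at stage 2, 93.3, 110 and 111 at stage 3, 179, 153 and 183 at stage 4, 207 and 286 at stage 5, and 518 and 434 at stage 6. Spipo18G0019600 (819 bases) was at 30.1, 26.4 and 21.2 FPKM at stage 2, 46.0, 41.6 and 37.0 at stage 3, 62.1, 60.3 and 63.1 at stage 4, 80.8 and 79.3 at stage 5, and 164 and 154 at stage 6. In all 5 genes the libraries were ordered by stage without overlap. Another 17 members were called at 3 steps (background 0.967%), 33 at 2 (background 4.42%), 30 at 1 (background 19.0%) and 9 at none (background 75.5%).

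Single libraries moved the counts of calls at single steps. The share of all genes tested that was called as rising is given beside each count, and in most cases it moved the same way. Without stage 2 replicate 3, 33 members were called from stage 2 to stage 3 (background 3.64%), and without stage 3 replicate 2, 31 (background 3.78%). From stage 3 to stage 4, 5 were called without stage 3 replicate 1 (background 1.93%), 2 without replicate 2 (background 0.904%) and 2 without replicate 3 (background 1.06%). At the same step 4 were called without stage 4 replicate 1 (background 1.75%) and 3 without replicate 2 (background 1.02%). Without stage 4 replicate 3, limma called 0 members there (background 0.686%), while 43 rose at an unadjusted p under 0.05, as did 7.04% of all genes tested. The calls from stage 4 to stage 5 numbered 40 without stage 5 replicate 2 (background 11.1%). Those from stage 5 to stage 6 numbered 4 without stage 5 replicate 1 (background 1.26%), 11 without stage 5 replicate 2 (background 1.99%) and 3 without stage 6 replicate 1 (background 0.986%), with the lone library left in a stage assumed to vary like the others. From stage 2 to stage 6 all 94 stayed called with any library left out. Scaling each library by its median ratio gave 15 calls from stage 3 to stage 4, with a background of 2.56% against 1.91% as deposited.

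Membership itself depended on single libraries. When the rule was applied again without 1 library, for each of the 13 in turn, it chose 64 to 104 genes, of which 56 to 87 were among the 94. Only 11 members were chosen in all 13 rounds, 61 in at least 10 and 7 in fewer than 7, and 133 further genes were chosen in some round. The 11 included Spipo13G0052200, Spipo3G0095500, Spipo30G0009500, Spipo0G0106000 and Spipo16G0025100.

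The library left out gave a reading that the choice had not used. Across the 10 libraries of stages 3 to 6, the left-out library lay above the mean of the stage before for 96.0% ± 3.89 of the genes chosen without it (SD over libraries), against 43.6% of all genes tested. The lowest share was 86.9%, for stage 4 replicate 2, and the highest was 100%, for stage 5 replicate 2. Below the mean of the stage after lay 96.2% ± 4.05 of the chosen genes over the 11 libraries of stages 2 to 5, against 44.5% of all genes tested. The mean of the neighbouring stage entered the choice, so the reading is independent on 1 side only, and genes are not replicates, so no p is given. The size of the step varied more than its direction. At stage 4, left-out replicates 1, 2 and 3 gave median steps of 0.37, 0.25 and 0.61 from stage 3, where the libraries used had given 0.45, 0.45 and 0.43.

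As a group the members took up a growing part of the messenger RNA. Together they held 1.05% ± 0.138 of the reads on genes at stage 2, 1.68% ± 0.214 at stage 3 and 2.20% ± 0.170 at stage 4 (SD, n = 3 each), then 3.68% ± 0.310 at stage 5 and 5.01% ± 0.234 at stage 6 (SD, n = 2 each). Single libraries ran from 0.890% in stage 2 replicate 3 to 5.18% in stage 6 replicate 1, and no stage overlapped with another. The 10 most abundant members accounted for most of it, with 2.92% ± 0.0849 at stage 6 (SD, n = 2), against 0.644% ± 0.0859 at stage 2 (SD, n = 3). The 41 members below 50 FPKM held only 0.116% ± 0.00530 at stage 6 (SD, n = 2), against 0.0205% ± 0.00134 at stage 2 (SD, n = 3). The increase follows from the rule, and its size is a description.

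**Figure D4:**
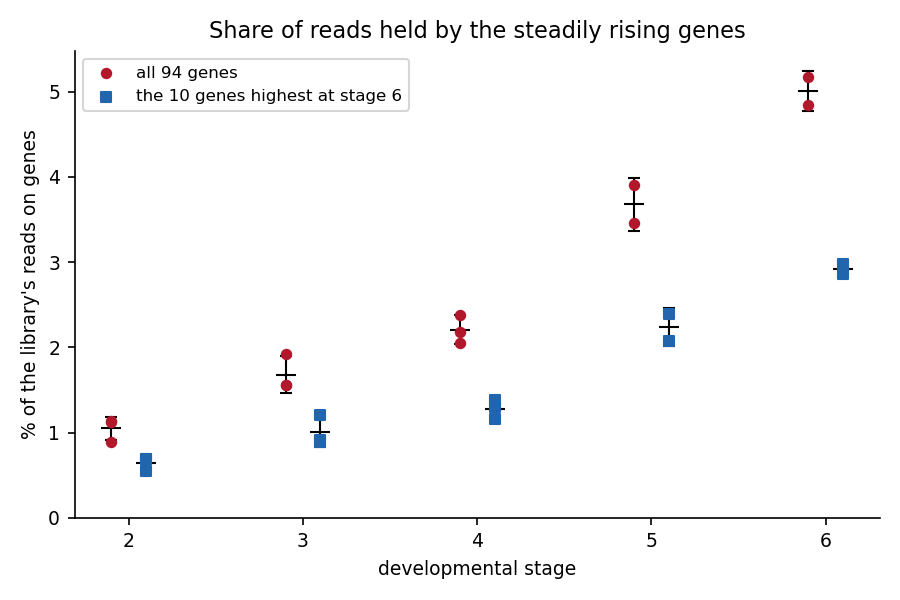
Share of each library's reads on genes, in percent (vertical axis from 0), at stages 2 to 6 (horizontal axis) for all 94 genes (circles) and for the 10 highest at stage 6 (squares), with 1 point per library and black marks for mean and SD. The share of all 94 genes was 5.01% at stage 6, against 1.05% at stage 2, and for them libraries of different stages did not overlap. For the 10 highest genes, stage 3 replicate 2 (1.20%) lay above stage 4 replicate 1 (1.15%).

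Within stages, deviations of the members from their stage mean were partly shared, a measure the rule did not use. Over the 13 libraries, the mean correlation of these deviations between pairs of members was 0.20, against 0.068 among the 2541 other genes called as at least 2-fold higher at stage 6 than at stage 2 and 0.011 over all pairs of the 15608 genes tested. It was 0.61 among the 23 members at 500 FPKM or more and 0.10 among the 41 below 50 FPKM. For comparison it was 0.15 among all 353 genes tested at 500 FPKM or more at stage 6, and 0.34 among the 126 of them that were not members and were called as at least 2-fold higher at stage 6 than at stage 2. All these genes share the same libraries and their depth, and counting noise is larger in low genes. Its part in the lower correlation of low members was not tested.

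The shared deviation was plainest at stage 2. In replicate 3, the deepest library at 10910370 reads, none of the 23 abundant members lay above its stage mean (background 48.5% of genes tested). In replicate 1, 23 did (background 49.4%), and in replicate 2, 22 did (background 53.3%). Their median deviation was -0.30 in replicate 3 on the log2(FPKM + 1) scale, against 0.12 and 0.15 in replicates 1 and 2. The median over all genes tested was within 0.02 of 0 in each. Over the other genes called as at least 2-fold higher at stage 6, it was -0.053 in replicate 3. In replicates 1 and 2 it was 0.0070 and 0.043 over these genes. Other genes of the same level were not read library by library. At stages 3 and 4 the abundant members stood high in 1 library each. For stage 4 it was replicate 3, the next deepest library of the series at 10650000 reads. Above the mean were 21 of 23 in stage 3 replicate 2 (background 44.7%) and 22 of 23 in stage 4 replicate 3 (background 42.5%). The other genes called as at least 2-fold higher had median deviations of 0.022 and 0.079 in these libraries. In stage 3 replicate 3 theirs was 0.080, against -0.14 for the abundant members. Without stage 2 replicate 3 the mean correlation among the 23 was 0.43, and with any other library left out it lay between 0.59 and 0.67. For the sets of other genes it was computed with all 13 libraries only. Whether the 23 differ from them without stage 2 replicate 3 was not tested.

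**Figure D5:**
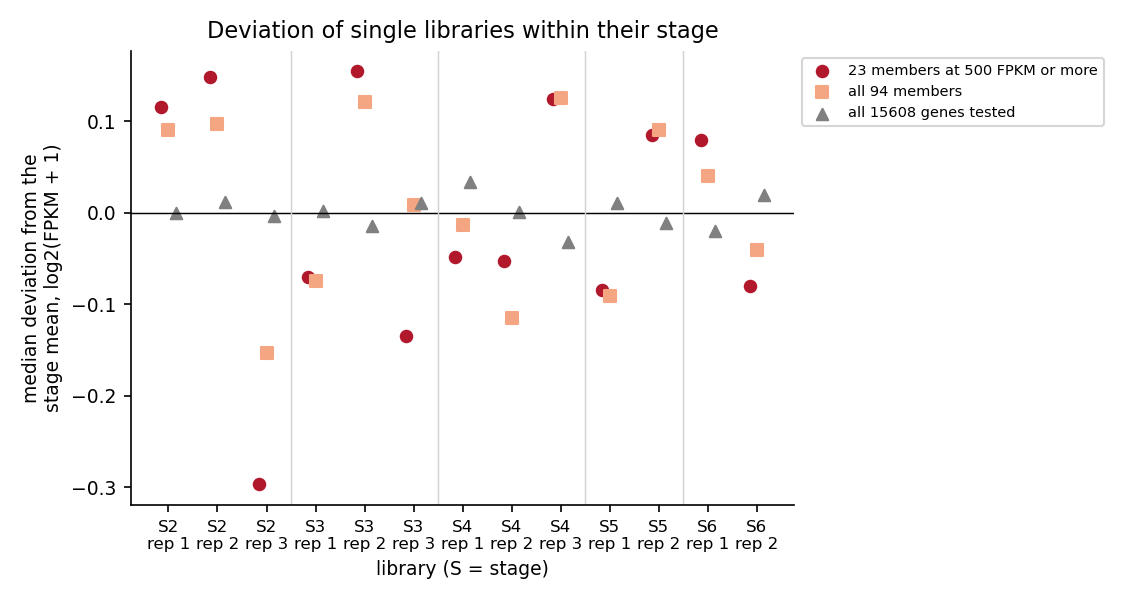
Median deviation from the stage mean on the log2(FPKM + 1) scale (vertical axis) in each library (horizontal axis, grouped by stage) for the 23 members at 500 FPKM or more at stage 6 (circles), all 94 members (squares) and all 15608 genes tested (triangles). The abundant members reach -0.30 in stage 2 replicate 3, where the median of all genes tested is near 0.

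Coding length was not used by the rule. Its median was 801 bases (quartiles 620 and 1235) over the members and 1017 bases (quartiles 603 and 1563) over all genes tested. The 23 abundant members had a median of 735 bases (quartiles 639 and 843), against 546 bases (quartiles 390 and 804) for the 353 genes tested at that level. By the number that precedes the G in the IDs, at most 9 members shared a number. ID number 2 held these 9, or 9.57% of the members and 6.25% of the genes tested, and ID number 8 held 7.45% of the members and 3.67% of the genes tested.

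A further 113 genes met the lower limits but went past at least 1 upper limit, 63 of them on entering stage 3, 61 on entering stage 4, 16 on entering stage 5 and 34 on entering stage 6. At stage 6 the median was 70.5 FPKM over the members and 61.4 FPKM over these genes. At stage 2 it was 13.5 FPKM over the members and 2.24 FPKM over these genes. These 113 genes held 1.73% ± 0.0262 of the reads at stage 6 (SD, n = 2), against 0.101% ± 0.0117 at stage 2 (SD, n = 3). The mirror rule, a fall of at least 0.3 at every step from a mean of at least 5 FPKM at stage 2, found 75 genes. These held 0.128% ± 0.0250 of the reads at stage 6 (SD, n = 2), against 0.512% ± 0.0317 at stage 2 (SD, n = 3), and none fell at a step by as much as the corresponding upper limit for rises. Both comparisons describe sets chosen by rule and were not tested.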

How the data were processed

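The authors deposited 1 table of FPKM values for 13 frond libraries, matched to samples by column name. Per the submitters' processing notes, HISAT2 2.2.1 and HTSeq 0.11.3 were among the tools, beside Trimmomatic 0.39, Picard 2.25.5 and CASAVA 1.8.2. The kit was stranded, per the labels' protocols. Not given in the sources used here are the genome build, the annotation, whether counting used strand, and any scaling between libraries. Reads of near-identical copies or of overlapping genes can therefore be misplaced. Because FPKM is a share of the library, gains of some genes lower the values of others.

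Every FPKM value of a gene is a multiple of what 1 read is worth. Totals and gene lengths solved from these steps gave whole reads within 0.001 reads for 100% of the 17445 genes with any value. Lengths were sought as multiples of 3 and are called coding lengths. Recovered reads served for depth, shares and an alternative fit.

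The fit across genes used limma 3.58.1 under R 4.3.3, on log2(FPKM + 1), with 1 mean per stage, a mean-variance trend and 8 residual degrees of freedom. The fit and the recovery of reads were tested on simulated data. Named genes were, among the members, the 10 highest at stage 6, the 6 with the largest rise, the 6 with the largest smallest step, the 6 with the most even steps, the 4 ordered genes with the smallest and the 4 members with the largest spread, and the 3 genes on either side of the lower limit. Members and lists were chosen with earlier results of these data known. Lists of hormone, cell wall and cell type genes needed product names and were not applied. Alternatives were pseudocounts, filters, scaling, other limits of the rule, a replicate block, fits of 2 stages, a voom fit of reads, and leaving out each library.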

Additional observations from a re-analysis of the deposited data

How the results depend on the processing

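With libraries scaled by their median ratio, the rule chose 170 genes, 86 of them among the 94. The members' percent of reads, divided by that ratio, averaged 5.86 at stage 6 and 0.979 at stage 2. These values are an index and not a share of a total. Undivided, the shares were 5.01% and 1.05%. A smallest step of at least 0.2 gave 227 genes, one of at least 0.4 gave 34, and no upper limits gave 207. A pseudocount of 5 gave 72 genes, 53 of them among the 94, a pseudocount of 0.1 gave 81 with 72 shared, averaging of logs gave 98 with 89 shared, and minimum levels of 1 and 10 FPKM gave 96 and 84. Leaving out 1 library gave 64 to 104 members. It gave 31 to 63 calls at the step into stage 3, 0 to 11 into stage 4, 40 to 70 into stage 5, 3 to 33 into stage 6, 94 from stage 2 to stage 6, 48 to 63 members ordered in every library, shares of 1.01% to 1.13% at stage 2 and 4.84% to 5.18% at stage 6, and mean correlations of 0.16 to 0.23 over all members and 0.43 to 0.67 over the abundant ones. For stages 5 and 6 a lone library was then assumed to vary like the others. From stage 3 to stage 4, 4 members were called in a fit of these stages alone (background 0.743%), 15 with median ratio scaling (background 2.56%) and 5 with no filter (background 1.48%), against 8 as reported (background 1.91%). From stage 5 to stage 6 a fit of both stages alone called 11 (background 3.11%), with fewer samples behind the spread. With 1 library per stage allowed out of order, 89 members were ordered (background 8.83%), by construction more. The other causes were not tested.

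With a replicate block, 15 members were called from stage 3 to stage 4 (background 2.45%), 64 from stage 2 to 3 (background 9.69%), 65 from stage 4 to 5 (background 14.8%), 28 from stage 5 to 6 (background 6.31%) and 94 from stage 2 to 6 (background 28.3%). No label ties equal replicate numbers. Deviations of libraries with the same number correlated by -0.24 to 0.37, and 7 of the 23 such correlations exceeded 0.1. For 8 of the 13 libraries the mean correlation was highest with their own number. Between stages 2 and 3, 2 and 4, and 3 and 4, the same-number correlations were 0.37, 0.21 and 0.26 for replicate 1. They were 0.084, -0.085 and -0.0092 for replicate 2, and 0.28, 0.073 and 0.24 for replicate 3. The numbers were not taken as pairs, since no label ties them. Whether equal numbers mark a shared source was not tested. For the 34 named members, all 612 alternative values of the change from stage 2 to stage 6 kept their sign and call. The rule chose these genes for a rise at every step in the same libraries, so nothing is read from this. Leaving out a library of stage 3, 4 or 5 also cannot alter the size of that change. The correlations of deviations under other scaling or without a library were added after the data were seen. Depth limits the 25 members with under 100 reads over the stage 2 libraries.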
